A study of Mus musculus with 18 samples.

Results

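The regions described here are stretches of the mouse genome that had lower DNA methylation in stem and progenitor cells labelled NHD13/Setd2 KO than in those labelled NHD13/Setd2 flox/flox, and that lay under broad peaks of the histone mark H3K36me3. They were chosen by the mean methylation of the NHD13 and KO bisulfite libraries and by peak position, from the authors' table of differentially methylated regions for these 2 bisulfite libraries: chromosomes 1 to 19, a mean methylation at least 0.1 lower in KO (as a fraction of 1), and an overlap of 1 bp or more with a peak of the H3K36me3 list of NHD13 leukemia. Peaks with a value above 100 in the fold column were left out. This gave 2374 regions. They were 35.4% of the 6703 regions with lower methylation in KO on these chromosomes (95% Wilson interval 34.3 to 36.6%, counting error only), among 32485 regions listed there and 37430 in the whole table. Of the 32485, 20.6% passed the rule on methylation before the peaks were applied. All values of these 2 bisulfite libraries served to choose the regions, so they are given as a description with no test.

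Mice were C57BL/6 throughout. Groups were WT, NHD13 (the NUP98-HOXD13 fusion transgene with floxed Setd2 alleles, Setd2 flox/flox), KO (NHD13/Setd2 KO) and AML (NHD13/Setd2 KO at the leukemia stage). Hematopoietic stem and progenitor cells (HSPCs) of the bone marrow were sorted for WT, NHD13 and KO, and C-Kit+ spleen cells for AML. RNA-seq covered the 4 groups with 3 libraries each, and whole-genome bisulfite sequencing covered them with 1 library each. H3K36me3 ChIP-seq was made in 1 library of C-Kit+ spleen cells of NHD13 leukemia and 1 of NHD13/Setd2 KO leukemia, so the peaks come from another tissue and stage than the methylation values of NHD13 and KO. The transgene is driven by regulatory elements of Vav, active across blood cells, and Setd2 was deleted by the inducible Mx1-Cre, which also acts outside blood cells. With 1 library a group, no difference in methylation or in peaks has a replicate check, and the tables hold no coverage, so the depth behind each methylation value is unknown. Whether the 3 RNA libraries of a group stem from different animals is not in the labels. Each p-value rests on the spread among libraries within groups, pooled over all 4 groups in 1 model. That spread may be technical.

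SETD2 is the enzyme that adds the third methyl group to lysine 36 of histone H3 behind elongating RNA polymerase II, so H3K36me3 marks the bodies of transcribed genes. The DNA methyltransferases DNMT3A and DNMT3B carry a PWWP domain that binds methylated lysine 36, and gene bodies with this mark are usually highly methylated. Promoters rich in CpG sites are usually free of both marks, except where a start site lies inside another transcribed gene or is imprinted.

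The regions' own letters could not be read because no genome sequence was used. Promoter windows came from the RefSeq table for GRCm38.p6, the same build as mm10. Of the 2374 regions, 2323 lay on chromosomes with windows in that table, and 43 of these touched a window. That table gives 250 bases before and 50 after 1 start site a gene. The 250 bases before the start are shown for 4 genes with a region on the window and a start at the outer end of the gene. They were chosen after their values were seen, for a large rise of RNA in KO at a level above 1 CPM (counts scaled to the library total) in each KO library, which leaves out Sox15. Letters run 5′ to 3′ on the strand of the gene, and capitals mark the CG dinucleotides that lie inside the region of lower methylation.
Mcts2 (chr2:152686898-152687147, plus strand): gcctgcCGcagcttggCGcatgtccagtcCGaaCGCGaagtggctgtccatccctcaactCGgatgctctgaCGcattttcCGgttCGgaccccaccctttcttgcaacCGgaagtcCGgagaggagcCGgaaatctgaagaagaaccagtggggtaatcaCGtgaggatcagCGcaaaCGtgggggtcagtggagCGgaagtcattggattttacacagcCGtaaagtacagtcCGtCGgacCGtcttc
Nradd (chr9:110624394-110624643, minus strand): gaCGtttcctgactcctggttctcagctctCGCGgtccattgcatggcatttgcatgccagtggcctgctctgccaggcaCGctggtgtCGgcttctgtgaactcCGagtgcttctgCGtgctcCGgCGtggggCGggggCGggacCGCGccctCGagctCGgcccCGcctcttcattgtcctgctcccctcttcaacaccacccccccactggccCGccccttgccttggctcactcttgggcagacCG
Vasn (chr16:4639695-4639944, plus strand): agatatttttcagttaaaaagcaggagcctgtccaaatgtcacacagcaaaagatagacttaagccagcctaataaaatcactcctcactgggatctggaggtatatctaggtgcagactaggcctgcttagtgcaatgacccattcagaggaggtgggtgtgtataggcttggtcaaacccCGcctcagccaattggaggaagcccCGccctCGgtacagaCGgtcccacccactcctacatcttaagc
Ctxn1 (chr8:4259275-4259524, minus strand): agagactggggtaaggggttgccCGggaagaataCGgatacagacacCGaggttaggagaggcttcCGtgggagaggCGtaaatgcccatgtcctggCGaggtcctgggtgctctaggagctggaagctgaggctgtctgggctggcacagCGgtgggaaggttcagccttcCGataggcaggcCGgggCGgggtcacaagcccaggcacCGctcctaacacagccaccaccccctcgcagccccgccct
The stretch of Mcts2 held 20 CG dinucleotides and that of Nradd 18, all of them inside the region. As many were found in 18.4% and 22.2% of the 31396 RefSeq windows, on those chromosomes used here that have any, over the same 250 bases. The stretch of Ctxn1 held 13, of which 11 lay inside the region (as many in 32.1% of windows). The stretch of Vasn held 4, all in its part next to the start site (as many in 62.7% of windows).

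Across the 2374 regions, the median methylation was 0.725 in NHD13 (quartiles 0.579 and 0.835) and 0.414 in KO (0.269 and 0.560). The median loss was 0.269 (quartiles 0.231 and 0.323), and losses ran from 0.135 to 0.680. In NHD13, 796 regions (33.5%) were at 0.8 or above. In KO, 325 regions (13.7%) were under 0.2. The regions were short, with a median length of 304 bases (quartiles 164 and 516) and a median of 15 CpG sites (8 and 26). Together they covered 955038 bases and 56665 CpG sites. The loss was partial at the median, where KO kept 0.414.

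**Figure D1:**
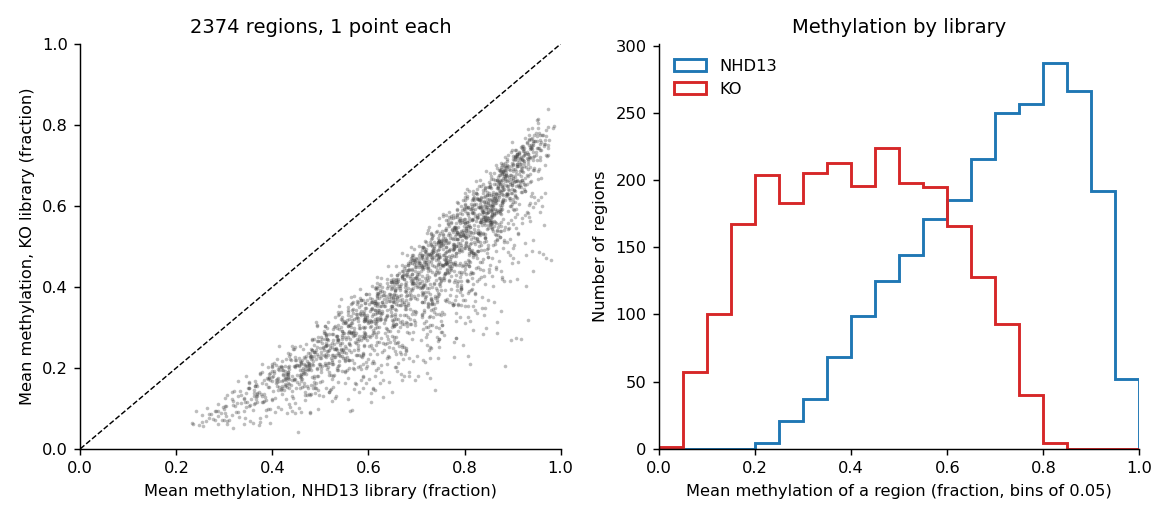
Left, the mean methylation of each of the 2374 regions in the KO library (y axis, fraction) against the NHD13 library (x axis, fraction), 1 point a region, with the line of equality dashed. Right, the number of regions in bins of 0.05 for NHD13 (blue) and KO (red). All points lie under the line by construction, and the medians are 0.725 and 0.414.

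No region in a peak had a fall between 0 and 0.1, so nothing lay just outside the threshold. The 3 regions just inside it were all highly methylated in both libraries. They lay in H13, which encodes the signal peptide peptidase (0.974 in NHD13, 0.839 in KO), in Hlx, a homeobox gene (0.953 and 0.814), and between genes on chromosome 2 (0.951 and 0.812).

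The loss varied with the CpG content of the region and little with the strength of the peak. With the regions split at the quartiles of CpG sites per 100 bases, from the sparsest group to the densest, the median loss went from 0.296 over 0.278 and 0.256 to 0.233. Split by the number of sites, from the group with the fewest (4 to 8) to that with the most (27 to 612), it went from 0.250 to 0.307. Split at the quartiles of the fold enrichment of the peak it stood at 0.269, 0.271, 0.266 and 0.270.

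Regions under peaks went mostly one way. Of the listed regions in peaks, 70.5% were lower in KO (2374 of 3369 that differed by at least 0.1; 95% Wilson interval 68.9 to 72.0%). Outside the peaks, 14.9% were lower (4329 of 28984; 14.5 to 15.4%). Put the other way, 35.4% of the regions lower in KO lay in peaks against 3.88% of those higher in KO (995 of 25650; 3.65 to 4.12%). By chromosome, 59.8% to 78.7% of the regions in peaks were lower in KO across the 19. The share outside peaks was not computed by chromosome. All chromosomes come from the same NHD13 and KO bisulfite libraries, whose values chose the regions, so they are not replicates. The intervals count regions and hold no spread between animals. The regions numbered 51 to 213 a chromosome and 8.40 to 17.1 per megabase of peak.

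Against the 4329 regions lower in KO outside peaks, those in peaks were longer (median 304 against 197 bases) and held more CpG sites (15 against 11) at a lower density (5.43 against 6.29 per 100 bases). Their methylation in NHD13 was higher (median 0.725 against 0.679), and their loss was 0.269 against 0.248. They lay in an annotated protein-coding gene in 2175 cases (91.6%), against 68.3% of the regions lower in KO outside peaks and 94.6% of the 995 regions higher in KO in peaks.

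Along the gene, the regions leaned to the far end. For the 1741 regions in coding genes with a known strand, the median position was 65.2% of the way from the start of the gene to its end. The last decile of the genes held 19.9% of these regions and 13.3% of the peak bases, and the first decile held 4.08% of the regions and 4.33% of the peak bases. Per megabase of peak this was 61.7 regions in the last decile, against 31.3 to 44.1 in the other 9. Peak bases were counted here only in coding genes that hold such a region. These shares and rates therefore compare deciles within those genes and are not densities over all peaks or all genes with peaks. The 763 regions higher in KO in peaks that could be placed had their median at 51.3%, and the 2318 lower in KO outside peaks at 35.98%, with 26.1% of them in the first decile. Of the 2175 regions in coding genes, 434 have no position here: 49 on chromosome 18 and 353 on other chromosomes lay in genes with no strand in the promoter table, and 32 had their midpoint outside the gene.

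**Figure D2:**
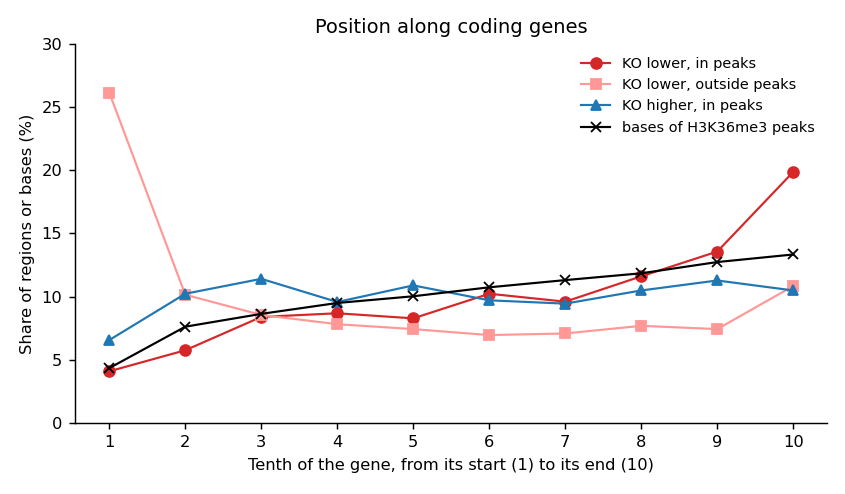
Share of regions or of peak bases (y axis, percent of the set) in each decile of protein-coding genes from start to end (x axis). Peak bases were counted only in genes that hold a region lower in KO in peaks. Regions lower in KO in peaks (red circles) rise to 19.9% in the last decile, above the peak bases (black crosses, 13.3%), while regions lower in KO outside peaks (pale squares) stand at 26.1% in the first decile. Regions higher in KO in peaks (blue triangles) stand at 10.5% in the last decile.

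The regions lay in 1886 of the 29940 peaks. The median length was 12360 bases with a region and 2320 without. Per megabase of peak the regions varied little with length: from the shortest class (under 1 kb) to the longest (from 50 kb) there were 13.4, 11.3, 13.7, 14.7, 12.1 and 9.89. In the same classes 0.797%, 1.57%, 3.88%, 8.88%, 18.7% and 36.1% of peaks held a region. With a region and without, the median fold enrichment, as the authors' list gives it, was 5.28 against 4.39. Most of these peaks (1536) held 1 region, 258 held 2, and 1 peak held 8. A region lay wholly under a peak in 83.2% of cases.

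H3K36me3 in the KO leukemia was not used by the rule. That list held 16771 peaks with a median of 1104 bases, covering 28.1 megabases against 190 in the NHD13 leukemia list. Among the 1886 peaks that held a region, 64.3% were overlapped by a KO AML peak, against 22.0% of the 28054 peaks that held none. The shares rose with peak length, so they are given by length class. They were 34.2% with a region (95% Wilson interval 28.8 to 39.9%) and 14.5% without (13.7 to 15.4%) for peaks of 2 to 5 kb, 50.3% (45.3 to 55.2%) and 36.6% (35.2 to 38.1%) for 5 to 10 kb, and 83.7% (81.3 to 85.9%) and 70.6% (69.2 to 71.9%) for 10 to 50 kb. In these 3 classes the intervals did not meet. In the other 3 they did: the shares were 3.57% (0.985 to 12.1%) and 3.47% (3.07 to 3.93%) under 1 kb, 9.68% (5.17 to 17.4%) and 5.71% (5.14 to 6.34%) for 1 to 2 kb, and 98.1% (93.4 to 99.5%) and 94.2% (89.8 to 96.7%) from 50 kb. The intervals count peaks of 1 library a group and hold no spread between animals. Length within a class was not matched, nor was fold enrichment (median 5.28 with a region and 4.39 without).

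**Figure D3:**
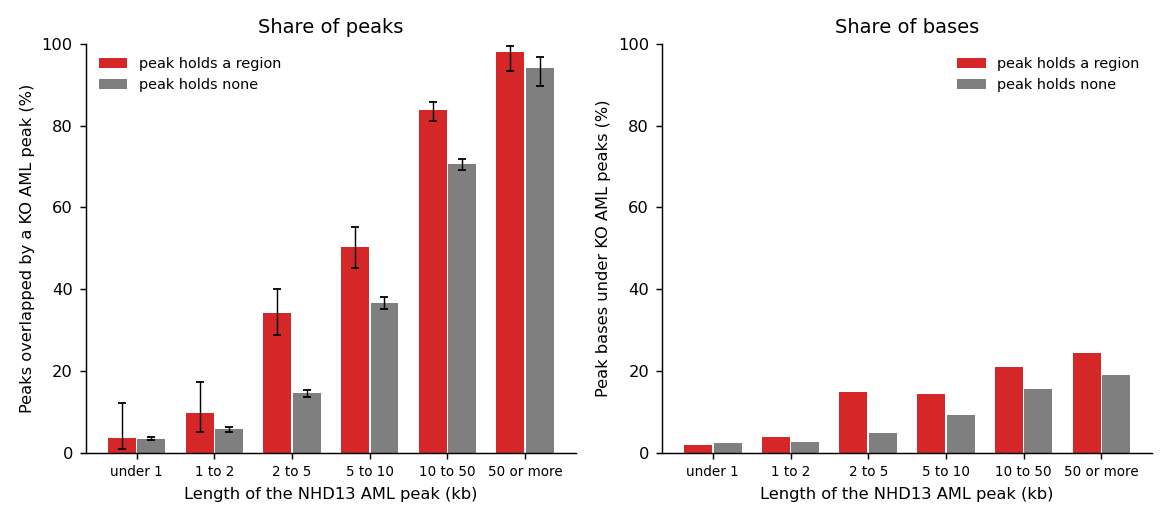
Left, the share of NHD13 AML peaks overlapped by a KO AML peak (y axis, percent, with 95% Wilson intervals) by peak length (x axis, kb), for peaks that hold a region (red) and peaks that hold none (gray). Right, the share of the bases of these peaks under KO AML peaks. From 2 to 50 kb the red bars are higher on both sides, and even in the longest class 24.5% of the bases of peaks with a region were covered.

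Seen from the regions, 1622 (68.3%) lay in a peak that a KO AML peak overlapped somewhere, against 58.2% of the regions higher in KO in peaks. The KO AML peak seldom reached the region itself. 237 regions (9.98%, interval 8.84 to 11.3%) were overlapped by one, and 7.66% of the regions' bases were covered, while 20.8% of all bases of their peaks were. For the regions higher in KO in peaks, 13.97% (11.95 to 16.3%) were overlapped and 12.7% of their bases covered. The 2 ChIP libraries have no replicates and the lists hold no depth, so a shorter list and a weaker library cannot be told apart.

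The WT and AML libraries gave values where the authors' tables for WT against NHD13 or KO against AML list a region that covers at least 0.5 of the length of one of these regions. A listing there means that a difference was called, so these values describe a chosen subset. Each of these tables also shares a library with the choice of the regions, NHD13 in the WT table and KO in the AML table. The regions were chosen for NHD13 above KO. A called difference thus tends to give low WT and high AML values by selection. In the 360 regions with a WT value, the median was 0.474 in WT, 0.650 in NHD13 and 0.322 in KO. In the 607 with an AML value, it was 0.776 in NHD13, 0.465 in KO and 0.772 in AML. For the 100 regions with all 4 values, the medians were 0.501 in WT, 0.727 in NHD13, 0.405 in KO and 0.750 in AML. In these subsets NHD13 and AML stood high and KO low, with WT between NHD13 and KO, an order that the choice itself favors. AML cells came from the spleen and the others from marrow, so tissue and stage cannot be told apart.

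The 8 regions with the most CpG sites held 234 to 612 of them. The largest, with 612 CpG sites (chr5:143252283-143255634), lay in Zfp316, a zinc finger gene, and stood at 0.797 in NHD13 and 0.257 in KO, at 0.277 in WT and at 0.911 in AML. Csf2ra, the alpha chain of the GM-CSF receptor, held a region of 311 sites (chr19:61225332-61226852) at 0.614 in NHD13, 0.181 in KO, 0.325 in WT and 0.769 in AML. In both, WT and KO were low and NHD13 and AML high. Snx20, a sorting nexin of white blood cells, differed in AML: its region of 266 sites (chr8:88626910-88628354) fell from 0.979 in NHD13 to 0.468 in KO and stood at 0.143 in AML. The others of the 8 were a region between genes on chromosome 11 (285 sites, 0.821 and 0.386) and regions in the potassium channel gene Kcnk12 (272, 0.668 and 0.235), in Epop, a partner of Polycomb repressive complex 2 (264, 0.730 and 0.343), in the transcription factor gene Casz1 (250, 0.952 and 0.666) and in Trim14, a tripartite motif gene, (234, 0.557 and 0.122), with NHD13 given first and KO second.

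The largest losses among regions with at least 10 CpG sites left 0.146 to 0.317 of methylation in KO, from 0.739 to 0.933 in NHD13. Plcb2, a phospholipase C of blood cells, had a region of 113 sites (chr2:118710775-118711837) that fell from 0.917 in NHD13 to 0.271 in KO, with 0.594 in WT. Mex3a, an RNA-binding protein, went from 0.933 to 0.317 over 160 sites, and Zfp703, a transcriptional co-repressor, from 0.811 to 0.209 over 124 sites. Ccdc32 (0.907 to 0.275), Ska2 of the kinetochore (0.739 to 0.146) and Ptcd2 of mitochondrial RNA processing (0.868 to 0.287) had fewer sites, 37, 19 and 31. One region of 112 sites on chromosome 18 (chr18:37841453-37843553) lay inside the clustered gamma protocadherin genes, whose transcripts share their last exons, and went from 0.896 to 0.269. The last of the 8 lay at the start of Vasn inside Coro7 and is described with the promoter windows.

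Protein-coding genes that held at least 1 of the regions, called host genes here, numbered 1708. Of these, 1335 held 1 region, 335 held 2 or 3, and 38 held 4 or more. RNA was tested for 1620 of them. Another 58 did not pass the filter on low counts and 30 had no unique identifier. Host genes were well expressed: their median was 5.29 FPKM in NHD13 and 5.58 FPKM in KO, against 1.87 and 2.19 FPKM for all 16233 genes tested. Genes with a peak but no listed region stood at 5.17 and 5.53 FPKM, close to the host genes.

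The RNA of host genes went in both directions. In KO against NHD13, 366 of the 1620 host genes were higher (22.6%, against 20.6% of all genes tested) and 407 lower (25.1%, against 20.3%), by edgeR's quasi-likelihood test with an adjusted p under 0.05. Their median log2 fold change was -0.02. For the 7545 tested genes with a peak and no region the shares were 18.7% and 26.4%, with a median of -0.04. Changes of 2-fold or more were fewer among host genes (64 higher and 65 lower, or 3.95% and 4.01%) than among all genes (8.67% and 6.47%), as they were among genes with a peak and no region (3.38% and 5.29%). The 363 genes with at least 2 regions showed 86 higher and 85 lower. With upper-quartile factors the balance turned, to 442 higher and 334 lower, and the median of all genes moved to 0.09 from 0.02.

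**Figure D4:**
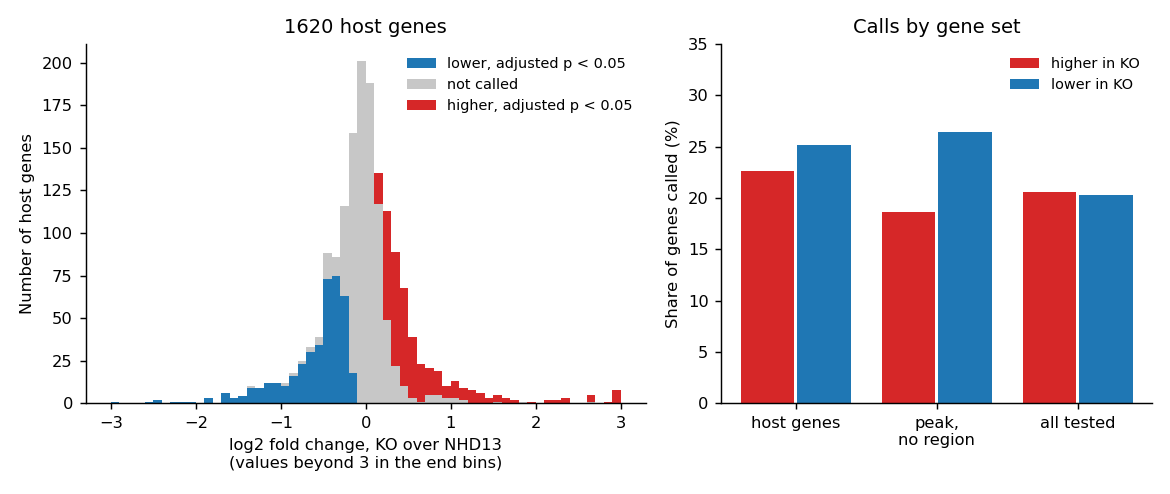
Left, the number of host genes (y axis) by log2 fold change of KO over NHD13 (x axis, bins of 0.1), with called genes in red (higher) and blue (lower) and the rest in gray. Right, the share of genes called (percent) for host genes, genes with a peak and no region, and all genes tested. Higher and lower calls are nearly balanced among host genes, at 22.6% and 25.1%.

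Marker RNA of several cell types differed between these groups. Stem and progenitor markers were higher in KO than in NHD13 for 13 of 14 tested (summed level 577 to 617 against 113 to 122 CPM), and neutrophil granule and granulocyte markers were lower for 16 of 16 (44650 to 46990 against 113200 to 125500). B cell markers were lower for all 10 tested (58.3 to 63.9 against 100.1 to 107). Of the monocyte and macrophage markers, 6 of 10 were higher and 3 lower, but their summed level was lower in KO (4149 to 4342 against 7598 to 9430). For T and NK cell markers, 1 of 7 was higher and 2 lower (summed 1055 to 1108 in KO against 1831 to 2097). For erythroid markers, 1 of 12 was higher and 3 lower (summed 2340 to 2474 in KO against 1874 to 2263). No marker was at 0 in all 12 libraries. In bulk cells, fewer cells of a type and less RNA or methylation per cell cannot be told apart. The part of the cell mix in the regions was not tested. NHD13 libraries held Xist, the RNA of the inactive X (53.9 to 109 CPM), and nearly no Y-linked Eif2s3y (0 to 0.0404), and KO libraries the reverse (0.0355 to 0.0979 and 53.8 to 59.0). WT libraries were like NHD13 (Xist 125 to 229, Eif2s3y 0) and AML libraries like KO (0 to 0.052 and 78.0 to 88.8). Sex and the KO label of the RNA libraries therefore cannot be told apart. The regions were kept to chromosomes 1 to 19, but the sex of the bisulfite libraries was not checked. Setd2 RNA over the whole gene was not detectably different (25.7 to 28.6 in NHD13 and 27.3 to 32.2 in KO; log2 -0.05 ± 0.08, adjusted p = 0.685), and these counts, summed over all exons, do not show whether an exon is missing, so they do not check the label.

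The other comparisons share libraries with this one: NHD13 is in both the first and the second, and KO in both the second and the third. In NHD13 against WT, 599 host genes were higher (37.0%, against 25.3% of all genes) and 373 lower (23.0%, against 28.7%). Genes with a peak and no region stood close to them, with 34.5% higher and 22.7% lower. In AML against KO, 969 were higher (59.8%, against 42.8%) and 467 lower (28.8%, against 39.5%), with a median log2 fold change of 0.63. For genes with a peak and no region these were 46.1% and 41.2%, with a median of 0.11. Among the 38 genes with 4 or more regions, 32 were higher in AML and 4 lower. The peaks that chose these genes were called in leukemic C-Kit+ spleen cells and mark transcribed genes. This comparison is therefore not independent of the choice and is given as a description. Host genes are long, with a median exonic length of 5318 bases against 3560 for all genes tested, and the part of length in the comparison of spleen with marrow was not tested.

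The genes that held the most regions (6 to 8 each) had RNA that rose, fell or was not called. Dock8, an exchange factor for the GTPase Cdc42 in immune cells, held 8 regions with 138 CpG sites (median 0.712 in NHD13 and 0.344 in KO). Its RNA stood at 142, 140.4 and 137 CPM (from here on scaled with TMM factors) in NHD13 and at 128, 118 and 122 in KO (log2 -0.19 ± 0.06, edgeR adjusted p = 0.0133). The 2 groups did not overlap, but the call was lost without NHD13 replicate 1 (adjusted p = 0.0572), without KO replicate 2 (0.0763) and with upper-quartile factors (0.151). Stk4, the Hippo pathway kinase MST1, held 8 regions (0.664 and 0.424) with RNA of 76.2, 77.5 and 78.3 CPM against 77.7, 75.3 and 78.6 (log2 0.00 ± 0.06, adjusted p = 0.974). Tiam1, an exchange factor for Rac, held 8 regions with 198 sites (0.855 and 0.663), and its RNA fell from 22.3, 21.3 and 26.3 to 14.1, 15.1 and 12.9 CPM (log2 -0.73 ± 0.10, adjusted p = 6.11e-06). The same number of regions thus stood beside a small fall, no call and a clear fall.

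Dapp1, an adaptor of B cell receptor signaling, held 7 regions with 235 sites (median 0.414 in NHD13 and 0.196 in KO). Its RNA rose from 99.2, 103 and 98.2 to 259, 273 and 253 CPM (log2 1.39 ± 0.05, adjusted p = 2.27e-13). Abcc4, a drug efflux pump, fell (log2 -0.57 ± 0.08) and so did Sacm1l, a phosphoinositide phosphatase (log2 -0.31 ± 0.10, adjusted p = 0.0158). The Sacm1l call was lost without NHD13 replicate 1 or 3 or KO replicate 3 (adjusted p = 0.0586, 0.0746 and 0.0570). The transcription factor gene Nfic (7 regions, log2 -0.15 ± 0.13) and the GTPase gene Rac1 (6 regions, log2 -0.04 ± 0.06) did not pass the test.

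Among host genes with at least 10 CPM, the 6 with the largest rises each held 1 region. Tsc22d1, a TGF-beta-induced regulator, went from 36.6, 43.8 and 37.4 CPM in NHD13 to 352, 347 and 354 in KO (log2 3.16 ± 0.08, adjusted p = 1.02e-15), with its region of 58 sites at 0.652 and 0.363. Adgrg1, an adhesion receptor of stem cells, rose 7.79-fold (log2 2.96 ± 0.08) and Cd27, a receptor of the TNF family on progenitors and lymphocytes, 6.39-fold (log2 2.68 ± 0.09). Both stood in WT HSPCs above their KO level, at 525 ± 62.3 and 111 ± 7.47 CPM (SD, n = 3), and they moved with the stem and progenitor markers above, whose part in these rises was not tested. Cd68, a lysosomal protein of macrophages and a monocyte marker, rose from 26.6, 22.8 and 26.3 to 122, 137 and 131 CPM (log2 2.37 ± 0.08), with a region of 24 sites at 0.655 and 0.334. Ugt1a7c rose 5.05-fold (log2 2.34 ± 0.12), but the genes of the Ugt1a cluster share exons, so its own value is uncertain. Mcts2 is described with the promoter windows.

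Of the 6 largest falls by the same rule, Afap1, which cross-links actin filaments, went from 36.4, 38.4 and 36.3 CPM to 0.580, 1.14 and 0.522 (log2 -5.56 ± 0.19, adjusted p = 3.99e-14). It held 2 regions with 13 sites in all, at medians of 0.862 and 0.591. Sema4a, a semaphorin (log2 -2.56 ± 0.22), Hvcn1, the voltage-gated proton channel of phagocytes (log2 -2.49 ± 0.13), Slc16a3, a lactate exporter (log2 -2.48 ± 0.14), Prkcb, protein kinase C beta (log2 -2.24 ± 0.09), and Pfkfb4, a regulator of glycolysis (log2 -2.12 ± 0.13), each held 1 region. Their methylation in NHD13 ran from 0.352 in Hvcn1 to 0.813 in Pfkfb4. In WT, Prkcb stood at 9.47 ± 0.962 and Slc16a3 at 4.65 ± 0.517 CPM (SD, n = 3), well under NHD13 (73.2 ± 8.02 and 29.0 ± 5.03). These falls stood beside the lower neutrophil markers in KO, whose part in them was not tested.

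Among the genes that write, read or erase the marks at H3K36 and on DNA, 33 were tested and 10 were higher in KO and 5 lower, beside 20.6% higher and 20.3% lower among all genes, and 5 of the 33 were host genes. The de novo DNA methyltransferase genes held no region themselves, and their RNA did not fall together. Dnmt3b rose from 16.1, 15.2 and 19.6 to 45.4, 50.2 and 46.4 CPM (log2 1.48 ± 0.09, adjusted p = 6.79e-11) and Dnmt3a from 24.4, 19.3 and 27.4 to 36.6, 48.9 and 40.6 CPM (log2 0.83 ± 0.12, adjusted p = 3.75e-05). Dnmt3l, their catalytically inactive partner, fell from 3.40, 3.15 and 2.42 to 0.843, 0.533 and 0.570 CPM (log2 -2.22 ± 0.30, adjusted p = 7.72e-06). Of the erasers, Tet1 rose (log2 1.26 ± 0.14), and so did Uhrf2, a reader of modified DNA (log2 0.43 ± 0.07), and Morf4l1, a chromodomain reader of H3K36 methylation (log2 0.33 ± 0.06). The regions were chosen for lower methylation in KO, so their direction beside this RNA is set by the rule. Of all listed regions that differed by at least 0.1, 25650 were higher in KO and 6703 lower. A link of this RNA to methylation was not tested.

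The 5 host genes of this list moved little. Tet3, which oxidizes methylated cytosine, held 3 regions with 172 sites (medians 0.718 and 0.371; log2 0.25 ± 0.09, adjusted p = 0.0391). Nsd3, which dimethylates H3K36 (log2 0.26 ± 0.08, adjusted p = 0.0184), and Psip1, a PWWP reader of the mark (log2 0.19 ± 0.07, adjusted p = 0.0301), held 1 region each. All 3 calls were lost when single libraries were left out (adjusted p up to 0.172 for Tet3 without NHD13 replicate 1, 0.106 for Nsd3 and 0.150 for Psip1 without KO replicate 1). Msh6, a mismatch repair protein with a PWWP domain (1 region at 0.575 and 0.159; log2 0.15 ± 0.07, adjusted p = 0.0865), and Supt6, the elongation factor SPT6 (log2 -0.07 ± 0.08, adjusted p = 0.518), did not pass the test. Of the stem cell markers only Erg was a host gene, with log2 0.12 ± 0.09 (adjusted p = 0.295).

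The promoter table holds no window on chromosome 18, so the 51 regions there could not be checked. The 43 regions on promoter windows touched 44 windows. For 19 of these windows the region also overlapped another coding gene, whether or not the window lay inside that gene. The 44 windows held a median of 9 CG dinucleotides, against 7 in all windows. RNA passed the filter for 28 of the 44 genes, which therefore are not all of them. Of the 28, 8 were higher in KO (beside 20.6% called higher and 20.3% lower among all genes), 4 were lower and 16 were not called. The table gives 1 start a gene, which can be an inner start of a long gene. Split by this after the values were seen, 17 tested windows lay within 300 bases of the gene's outer end, with 6 higher and none lower, and 11 lay farther inside, with 2 higher and 4 lower.

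Nradd, a relative of the neurotrophin receptor with a death domain, starts outside the neighboring Nbeal2, into which its region extends. Its region of 135 sites (chr9:110624117-110625459) stood at 0.550 in WT, 0.935 in NHD13, 0.572 in KO and 0.204 in AML. Its RNA stood at 3.79, 3.74 and 3.64 CPM in WT, at 0.324, 0.315 and 0.198 in NHD13, at 3.95, 6.24 and 4.75 in KO and at 3.75, 4.34 and 4.88 in AML. NHD13 alone was low, and its libraries overlapped with no other group. The rise in KO was 17.8-fold (log2 4.15 ± 0.29, adjusted p = 8.49e-10), after a fall of log2 -3.72 ± 0.30 from WT to NHD13. Nbeal2 did not pass the test (log2 0.01 ± 0.10, adjusted p = 0.958).

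Vasn, a membrane protein that binds TGF-beta, starts inside Coro7, a coronin of the Golgi. Its region of 86 sites (chr16:4639877-4640895) stood at 0.289 in WT, 0.806 in NHD13, 0.228 in KO and 0.621 in AML. Its RNA stood at 1.55, 1.62 and 2.57 CPM in WT, 0.324, 0.577 and 0.346 in NHD13, 2.79, 3.73 and 3.94 in KO and 54.7, 53.7 and 46.6 in AML. From WT to KO the low methylation stood beside the higher RNA (KO over NHD13 log2 3.06 ± 0.28, adjusted p = 4.46e-08), but the AML library had both high methylation and the highest RNA. Coro7 fell slightly in KO (log2 -0.34 ± 0.12, adjusted p = 0.0365), the opposite direction to Vasn.

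Mcts2, a copy of Mcts1 without introns that lies inside H13 and is imprinted in mice, held a region of 163 sites (chr2:152686261-152687857) at 0.931 in NHD13, 0.585 in KO and 0.958 in AML. Its RNA rose from 3.62, 2.52 and 2.23 CPM in NHD13 to 17.3, 18.4 and 17.3 in KO (log2 2.67 ± 0.16, adjusted p = 1.31e-10), from 1.39, 1.99 and 1.41 in WT. In AML it stood at 7.24, 7.41 and 7.997 CPM. Reads of Mcts1 and Mcts2 can be hard to separate and those of H13 overlap, so the values are uncertain, but H13 went the other way (log2 -0.33 ± 0.08, adjusted p = 0.00206). Ctxn1, a membrane protein of neurons, had a region of 26 sites before its start (chr8:4259313-4259556) at 0.179 in WT, 0.409 in NHD13 and 0.221 in KO. Its RNA stood at 3.25, 4.32 and 3.85 CPM in WT, 0.162, 0.105 and 0.198 in NHD13 and 2.06, 2.17 and 1.80 in KO (KO over NHD13 log2 3.65 ± 0.35, adjusted p = 1.07e-07), again with NHD13 alone low. The summed stem and progenitor markers were also lowest in NHD13. They stood at 1184 to 1345 CPM in WT, 113 to 122 in NHD13, 577 to 617 in KO and 1279 to 1317 in AML. All 14 were lower in NHD13 than in WT, and all 16 neutrophil markers higher. The part of the cell mix in Nradd, Vasn and Ctxn1 was not tested.

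**Figure D5:**
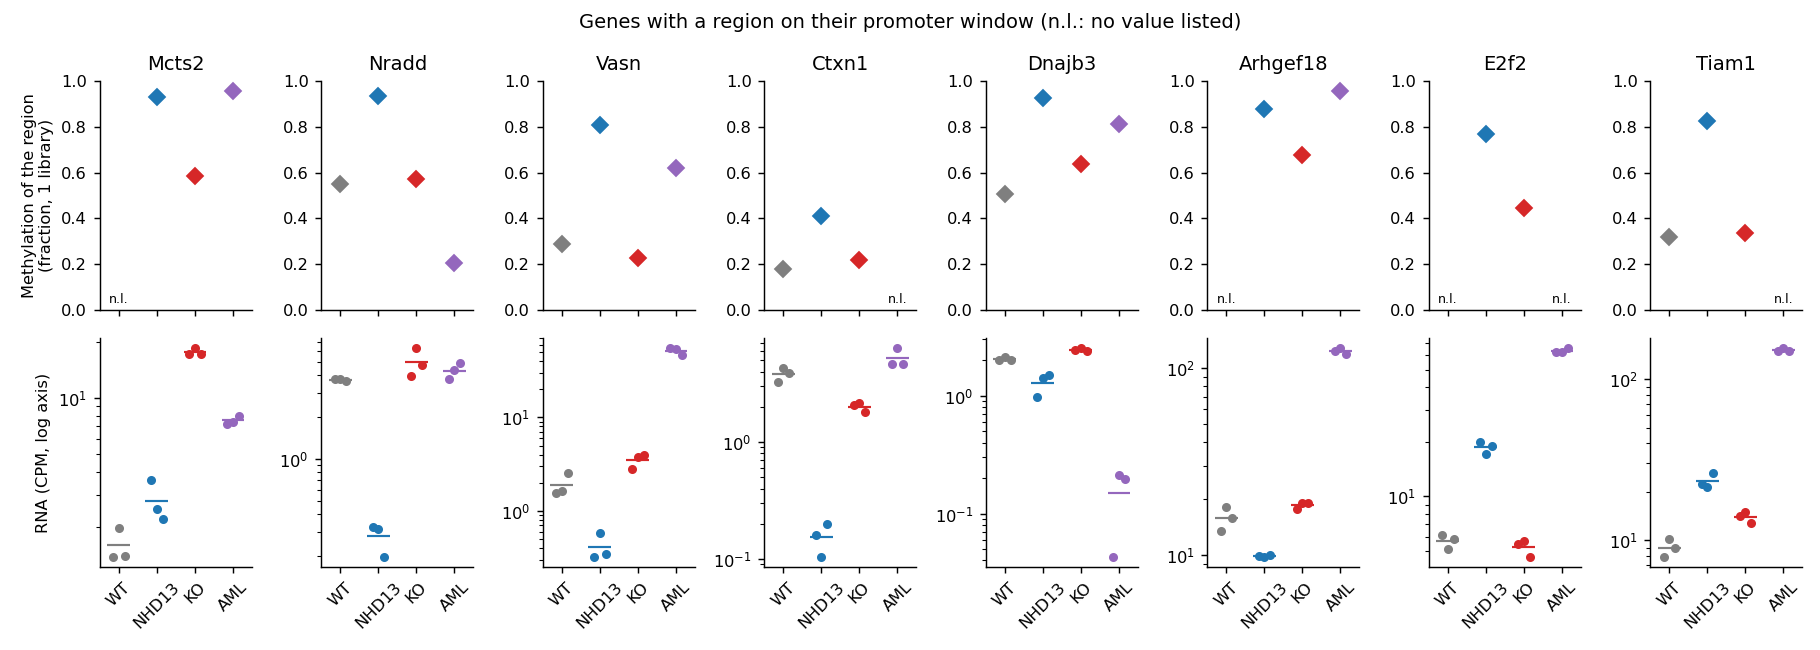
Top, the methylation of the region on the promoter window (y axis, fraction, 1 library a group, n.l. where no value is listed) and bottom, the RNA level of the gene (CPM, log axis, 3 libraries a group with their mean as a line) for 8 of the genes. In Nradd, Vasn and Ctxn1 the NHD13 library has the highest methylation and the NHD13 RNA the lowest level, while in E2f2 and Tiam1, whose windows lie inside the gene, RNA is higher in NHD13 than in KO.

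The others that rose were Sox15, a transcription factor with 0 to 15 reads a library in NHD13 and KO (log2 2.85 ± 0.88, adjusted p = 0.0144, lost without NHD13 replicate 2 or KO replicate 3, with 0.0574 and 0.0932), the chaperone gene Dnajb3 inside the Ugt1a cluster (log2 0.91 ± 0.26, adjusted p = 0.00843), and, at inner starts, Arhgef18 (log2 0.90 ± 0.10), and Dnajc6, which uncoats clathrin vesicles (log2 0.89 ± 0.14). The 4 that fell all had the window at an inner start. E2f2, a cell cycle transcription factor, fell from 19.9, 17.2 and 19.03 to 5.48, 5.67 and 4.65 CPM (log2 -1.83 ± 0.11, adjusted p = 7.12e-11) with its region of 80 sites at 0.770 and 0.444. Dctn1 of the dynactin complex (log2 -1.08 ± 0.13), Tiam1 (above) and the adaptor gene Shc1 (log2 -0.52 ± 0.12) also fell. Hoxa2 and Insl3 had large regions over the whole window, of 204 and 217 sites, that fell from 0.867 to 0.312 and from 0.943 to 0.515. Their RNA was not called (log2 1.08 ± 0.47, adjusted p = 0.0729, and -0.17 ± 0.88, adjusted p = 0.898) at 5 to 22 and 0 to 8 reads a library, so a difference was not detectable at this depth. Lower methylation at a start site thus stood beside more RNA in some genes, less in others and no call in most.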

How the data were processed

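The members and the gene lists were chosen with earlier results of these data known. Per the submitters' processing notes, which name tools for the whole series with no order, the genome build was mm10 and the tools included HISAT2 2.0.5, HTSeq 0.9.1, Bismark 0.19.0, Bowtie2 2.2.9 and MACS2 2.1.1.20160309. No source used here names the caller of the methylated regions or the coverage per site. The authors deposited raw read counts of 53946 genes, and FPKM values that equal count divided by length and library total (largest relative difference 1.808e-13). The deposited region tables give mean methylation as a fraction and a score summed over the region. Which side is which library was read from the order of names and checked on regions that tables share (3830 of 3849 and 2233 of 2236 equal within 0.01). The deposited peak lists give a fold enrichment ratio and −log10 p and q per peak, each from 1 library. 5 peaks with a value above 100 were left out. Every column of sample values was used.

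Overlaps were computed with pandas 2.3.3, in 1-based coordinates, on the RefSeq gene table of GRCm38.p6 matched by symbol, which has no exons. Counts were tested with edgeR 4.0.16 (R 4.3.3) over all 12 libraries: TMM factors, filterByExpr (16233 genes), the quasi-likelihood F test and Benjamini-Hochberg adjustment at 0.05. Every gene with an adjusted p under 0.05 is called. Fold changes are log2 ± SE. CPM of single genes use TMM factors (0.798 to 1.25), and those of marker sums, Setd2, Xist and Eif2s3y use library totals (18673704 to 28127686 counts). Intervals of shares are Wilson 95% intervals. Simulated counts of 14181 genes held 50 changed genes for each size of change. For KO against NHD13, 98% of the 1.5-fold and 100% of the 2-fold changes were recovered, with 4 false calls. The changed genes were drawn from those with higher counts, and all genes had 1 common spread. The rates therefore do not cover genes with few reads, among them several on promoter windows. No source used here says whether counting used strand, so overlapping and antisense genes are uncertain.

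Named regions are the 8 with the most CpG sites, the 8 with the largest loss among those with at least 10 sites, and the 3 nearest the threshold on each side. Named host genes are the 6 with the most regions (9 with ties, of which 1 is not reported here), the 6 with the largest rise and fall at an adjusted p under 0.05, at least 10 CPM and no overlap, and members of the lists (H3K36 and DNA methylation; stem, neutrophil, erythroid, B, T and NK, and monocyte markers). Promoter windows were added after the data were seen. Alternatives included RLE and upper-quartile factors, DESeq2 1.42.0, no filter, the replicate block and leaving out each library.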

Additional observations from a re-analysis of the deposited data

How the results depend on the processing

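The share of regions lower in KO that lay in peaks (35.4%) was 32.9% with at least 0.5 of the region in peaks, 38.1% at a difference of at least 0.2, 31.9% with peaks of −log10 q of at least 5 and 40.8% for regions with at least 10 CpG sites. The median loss was 0.276 at a difference of at least 0.2 and 0.277 with at least 10 CpG sites. The share of regions whose peak was overlapped by a KO AML peak (68.3%) depended most on the rule: it was 10.9% when 0.5 of the peak had to be covered, 9.98% when the region itself had to be overlapped, and 40.6% with KO AML peaks of −log10 q of at least 5. By its midpoint, 90.3% of the regions lay in a gene. With only the genes that hold at least 2 regions, 86 were higher and 85 lower, since fewer genes enter. With upper-quartile factors the median log2 fold change of host genes was 0.049; the cause was not tested. Without 1 library each, 314 to 346 host genes were higher and 345 to 406 lower, with medians from -0.03 to 0.003. With the replicate block, 361 were higher and 398 lower, with a median of -0.02. Same-numbered NHD13 and KO libraries deviated with correlations of 0.09, -0.38 and 0.04 over 8552 genes, and differently numbered ones with -0.37 to 0.27. Deviations among 3 libraries a group cannot decide whether the numbers pair the samples. Of 549 values of 46 named genes under the alternatives, 528 kept direction and call, 19 lost the call, 2 gained it and 0 turned. Psip1 also lost it without the filter on low counts (adjusted p = 0.0532) and Tet3 with the replicate block (0.0559), while Msh6 gained it with upper-quartile factors (0.00796) and Hoxa2 without KO replicate 1 (0.0464), all by edgeR. The gene counts on promoter windows were added to the alternatives after seeing the data and stood at 7 to 9 higher and 4 to 5 lower. Single methylation and ChIP libraries and the unknown coverage limit every value of methylation and of peaks.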
